A study of Homo sapiens with 8 samples.

Results

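Keratins are the intermediate filament proteins of epithelial cells, and their genes form a family that was described here through 8 ATAC-seq peak lists. The members were the protein-coding genes on chromosomes 12 and 17 whose symbol is KRT followed by digits, with a trailing letter allowed and keratin-associated protein genes left out. There were 55 of them among 19974 protein-coding genes, 27 on chromosome 12 and 28 on chromosome 17, with positions from a RefSeq table of GRCh38.p14. ATAC-seq marks open chromatin by the sites where a transposase inserts sequencing adapters. The samples came from H1975 and HCC44, both human lung cancer cell lines labelled as wild type. Per the labels, cells of each line were kept for 96 h in DMSO, the solvent, or in ACBI1, a degrader of the chromatin remodelling ATPases SMARCA2 and SMARCA4 and of PBRM1, at 1 mM as the label writes it, a unit that may be a slip for micromolar and could not be checked. Each of the 4 groups (H1975 with DMSO, H1975 with ACBI1, HCC44 with DMSO, HCC44 with ACBI1) had 2 replicates, and nothing in the labels says whether these were separate cultures.

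Keratins work as pairs of a type I and a type II protein that assemble into filaments anchored at desmosomes and hemidesmosomes. Type II genes lie in a single cluster on chromosome 12, which also holds the type I gene KRT18, and the other type I genes lie on chromosome 17. Glandular epithelia and adenocarcinomas express the simple keratins KRT8, KRT18, KRT19 and KRT7, basal cells of stratified epithelia KRT5 and KRT14, wounded or activated epithelia KRT6A, KRT16 and KRT17, and the hair follicle a large group of its own.

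The lists held between 22133 and 50347 peaks, the shortest being H1975 ACBI1 replicate 2. Since they hold no read numbers, the depth of each sample is unknown, and a peak that is not listed is not a measurement of closed chromatin. As a check of the labelled cell type, the epithelial genes EPCAM, CLDN4, KRT8 and KRT18 had a peak at a gene boundary in all 8 lists, and CDH1 in 7. The mesenchymal genes VIM and ZEB1 also had one in all 8, and CDH2 had none in any. NAPSA, a lung adenocarcinoma marker, had one in all 8, while NKX2-1, the lung lineage factor, had one in all 4 H1975 lists and in 1 of 4 HCC44 lists, and SFTPB, a surfactant gene, in both HCC44 DMSO lists only. None of the endothelial markers PECAM1, CDH5 and VWF had a boundary peak in any list, nor did the immune marker PTPRC, while CD3E had one in both H1975 DMSO samples and in HCC44 DMSO replicate 2.

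A boundary peak is one that lies within 1 kb of the first or last base of a gene, and surrounding peaks are all those in the gene and 50 kb either side, boundary peaks included. Few keratin genes had a boundary peak. In DMSO, 10 of 55 members in H1975 (18.2%) and 13 in HCC44 (23.6%) had one in both lists, against 59.6% and 61.0% of all protein-coding genes. Over all lists, 14 members had a boundary peak at least once and 41 never did, while 67.2% of all genes had one at least once. The surrounding peaks were fewer than elsewhere too, with a median of 2 and 2 per member in the H1975 DMSO lists and 4 and 3 in those of HCC44. For all genes these medians were 4 and 4, and 5 and 5.

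With ACBI1 fewer peaks were listed around the keratin genes in both lines. The windows of neighbouring members overlap, so distinct peaks were counted over the whole of them. H1975 had 59 and 54 distinct peaks in DMSO against 40 and 34 in ACBI1, and HCC44 had 66 and 63 in DMSO against 33 and 35 in ACBI1. Both ACBI1 samples lay below both DMSO samples in each line, with means of 56.5 ± 3.54 and 37.0 ± 4.24 in H1975 (SD, n = 2) and of 64.5 ± 2.12 and 34.0 ± 1.41 in HCC44. These ACBI1 means were 65.5% and 52.7% of DMSO, and those of the whole lists were 58.9% and 51.0%, so the total around keratins was near that of all peaks. On chromosome 12, where the 27 genes from KRT80 to KRT18 stand with no other protein-coding gene in their 884 kb, H1975 had 43 and 39 peaks in DMSO against 29 and 23 in ACBI1, and HCC44 had 49 and 44 in DMSO against 23 and 26 in ACBI1. The windows from KRT222 to KRT40 on chromosome 17 held at most 5 peaks in any list. The number of members with a boundary peak was 10 and 11 in DMSO against 7 and 6 in ACBI1 in H1975, and 14 and 13 in DMSO against 8 and 8 in ACBI1 in HCC44. Of all genes, 60.5% and 60.3% had one in the H1975 DMSO lists and 59.6% and 57.5% in the ACBI1 lists, and in HCC44 these shares were 62.0% and 62.0%, then 58.3% and 57.9%.

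**Figure D1:**
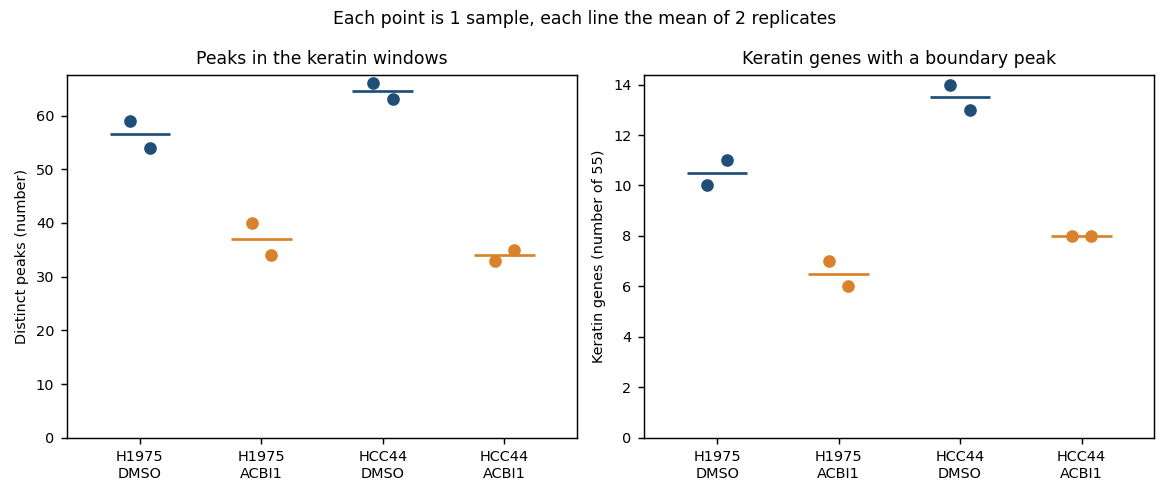
Distinct peaks in the windows of all 55 keratin genes (left, number) and keratin genes with a boundary peak (right, number of 55) for the 4 groups; each point is 1 sample and each line the mean of 2 replicates. In both panels and both lines the ACBI1 samples lie below the DMSO samples, with 33 to 40 distinct peaks against 54 to 66.

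Gene by gene, a member was called "fewer" when both ACBI1 lists held fewer surrounding peaks than both DMSO lists of the line, and "more" in the reverse case. In H1975, 32 of the 47 members with any surrounding peak were called fewer (68.1%) and 0 more, against 49.5% and 1.65% of all protein-coding genes with a peak. In HCC44, 39 of 47 were called fewer (83.0%) and 1 more, against 62.4% and 2.03%. The member called more was KRT73, an inner root sheath keratin, with 0 and 0 peaks in DMSO against 1 and 1 in ACBI1. Of the 55 members, 29 were called fewer in both lines, as were 6805 of the 19974 genes. For each of these a two-sided exact permutation test that used both lines gave p = 0.0556, the smallest that 36 arrangements of the treatments within lines can give, so no single gene can pass 0.05. A gene called fewer in both lines always gives that value, so the test adds nothing to the call. The spread between these samples may be technical. The number of surrounding peaks in ACBI1 was a median of 50% of that in DMSO over members in H1975 and 37.7% in HCC44, against 75% and 66.7% over all genes with a DMSO peak. Neighbouring members share peaks in these shares, and they depend on the list lengths. With the 22133 strongest peaks of every list by −log10 q, 4 members were called fewer and 7 more in H1975 (13.4% and 28.5% of all genes), and 14 fewer and 6 more in HCC44 (15.1% and 36%). With 10 kb in place of 50 kb, 13 members in H1975 and 18 in HCC44 were called fewer (33.1% and 42.9% of all genes). The percentages at these 2 settings are of genes with a peak left in the window. Members with a peak left were not counted, so the member counts cannot be placed above or below them.

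**Figure D2:**
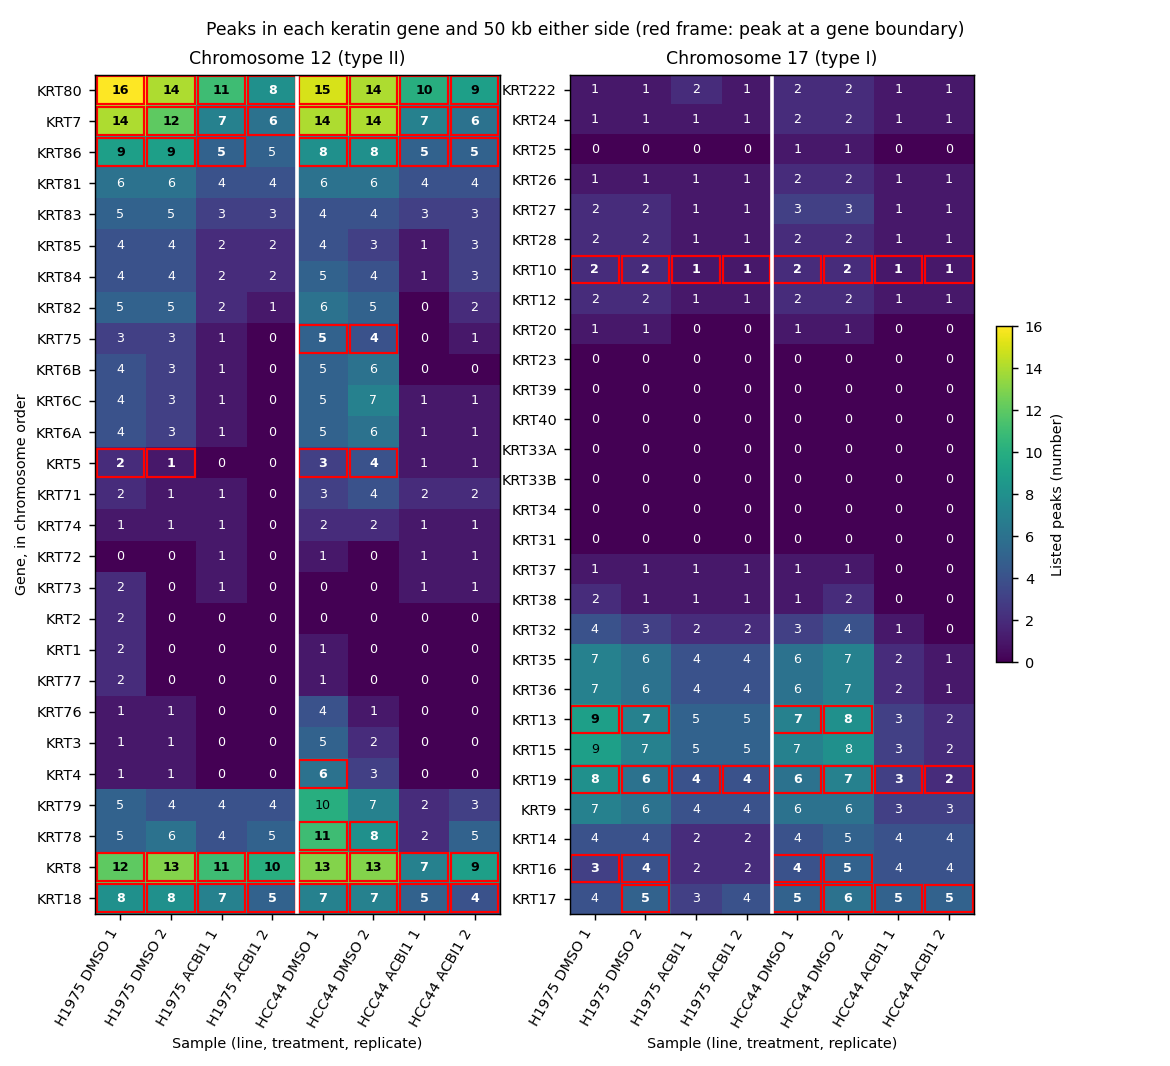
Surrounding peaks (number in each cell and colour) of each keratin gene in chromosome order for the 8 samples; a red frame marks a boundary peak. Peaks concentrate at KRT80, KRT7 and KRT8, with up to 16 in a list, and the genes from KRT23 to KRT31 on chromosome 17 have 0 in every list.

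Of the 5 simple epithelial keratins, 4 had boundary peaks with and without ACBI1. KRT7, KRT8, KRT18 and KRT19 had one in all 8 lists, and KRT20, an intestinal keratin, in none. KRT7, the type II keratin of ducts and lung adenocarcinoma, lies on chromosome 12 from 52233243 to 52255853. Around it H1975 had 14 and 12 peaks in DMSO against 7 and 6 in ACBI1, and HCC44 had 14 and 14 in DMSO against 7 and 6 in ACBI1. Its boundary peak, chr12:52232628-52233985, had a fold enrichment of 3.64 and 3.91 in the DMSO lists and of 4.63 and 5.34 in the ACBI1 lists in H1975, and of 3.76 and 3.77 in the DMSO lists and of 4.75 and 4.68 in the ACBI1 lists in HCC44. Fold enrichments here are the authors' ratios of a peak over its caller's background, comparable only within a list. Within the lists, that peak stood at percentiles 46.5 to 61.1 of −log10 q, where 100 is the strongest peak. Ranks place a peak within its own list, and since the lists differ in length they show no change between them. A neighbouring peak, chr12:52230473-52231011, 2232 bp from KRT7, was listed in all 4 DMSO samples and in no ACBI1 sample. The boundary peak of KRT7, over position 52233243, was thus listed throughout, while the surrounding peaks were fewer in every ACBI1 sample than in any DMSO sample.

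KRT18, the type I partner of KRT8, lies at the end of the chromosome 12 cluster from 52948855 to 52952906. Its boundary peak, chr12:52948822-52950140, was listed in all 8 samples. That peak also touches the far end of the KRT8 record, which runs from 52897191 to 52949860 and overlaps KRT18, so both genes share it. It stood at percentiles 28.0 to 85.3 of −log10 q in the H1975 lists and 37.0 to 64.4 in those of HCC44. KRT18 had 8 and 8 surrounding peaks in DMSO against 7 and 5 in ACBI1 in H1975, and 7 and 7 in DMSO against 5 and 4 in ACBI1 in HCC44.

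KRT8, the type II keratin of simple epithelia, had 12 and 13 surrounding peaks in DMSO against 11 and 10 in ACBI1 in H1975, and 13 and 13 in DMSO against 7 and 9 in ACBI1 in HCC44. Inside its record, chr12:52903485-52905413 held a peak in all 8 samples, at percentiles 33.2 to 65.8 of −log10 q. By contrast chr12:52907337-52908631, also inside KRT8, was listed in all 4 DMSO samples, at percentiles 38.8 to 52.3, and in no ACBI1 sample. Another region, chr12:52925077-52927689, surrounds the transcription start that the RefSeq promoter table gives for KRT8, at position 52926469. HCC44 DMSO samples held a single peak across it, 2539 and 2519 bp wide, and HCC44 ACBI1 samples only a peak of 324 and 308 bp at its upper end. In H1975 both DMSO samples and ACBI1 replicate 1 held a peak on each side of the start, ACBI1 replicate 2 held only a peak of 211 bp at the upper end, and no sample held one over the start itself.

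KRT19, the smallest keratin and a type I keratin of ducts, lies on chromosome 17 from 41523617 to 41528308. Its boundary peak, chr17:41527186-41528507, was listed in all 8 samples, at percentiles 11.3 to 59.5 of −log10 q. Just beyond the gene, chr17:41529540-41530780 was listed in all 4 DMSO samples, at percentiles 50.7 to 54.7, and in no ACBI1 sample. In the HCC44 DMSO lists the KRT19 peak stood lower, at percentiles 15.4 and 12.9, than this neighbour that was not listed with ACBI1. KRT19 had 8 and 6 surrounding peaks in DMSO against 4 and 4 in ACBI1 in H1975, and 6 and 7 in DMSO against 3 and 2 in ACBI1 in HCC44. KRT20 had 1 and 1 surrounding peak in DMSO against 0 and 0 in ACBI1 in each line.

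Among the 8 keratins of basal and activated epithelia, 3 had a boundary peak in any list, and those of KRT5 and KRT16 were listed with DMSO only. KRT5, the type II keratin of basal cells, lies on chromosome 12 from 52514575 to 52520394. A peak within 1 kb of its start, chr12:52521341-52522660, was listed in all 4 DMSO samples and in no ACBI1 sample. It was a weak peak in H1975, at percentiles 3.02 and 5.61 of −log10 q, and stood at 18.0 and 32.0 in HCC44. Around KRT5, H1975 had 2 and 1 peaks in DMSO against 0 and 0 in ACBI1, and HCC44 had 3 and 4 in DMSO against 1 and 1 in ACBI1. KRT14, its type I partner, had no boundary peak in any list, and had 4 and 4 surrounding peaks in DMSO against 2 and 2 in ACBI1 in H1975. In HCC44, KRT14 had 4 and 5 in DMSO against 4 and 4 in ACBI1, where the groups overlap. KRT15, another basal keratin, had no boundary peak either, and its 9 and 7 surrounding peaks in DMSO against 5 and 5 in ACBI1 in H1975 are shared with KRT13 and KRT19 nearby.

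KRT16, a type I keratin of wounded and hyperproliferative epidermis, had a boundary peak at chr17:41612751-41613325 in all 4 DMSO samples and in no ACBI1 sample. It stood near the middle of the lists or above, at percentiles 56.6 and 37.1 in H1975 and 75.3 and 55.1 in HCC44. Its fold enrichment was 7.02 and 5.62 in the H1975 DMSO lists and 5.28 and 4.37 in those of HCC44. KRT17, its neighbour and also a stress keratin, differed between the lines. Its boundary region, chr17:41624358-41625919, was listed in all 4 HCC44 samples, at percentiles 75.9 and 82.1 of the DMSO lists and 11.5 and 19.8 of the ACBI1 lists. In H1975 it was listed in DMSO replicate 2 only, at percentile 3.87. KRT6A, KRT6B and KRT6C, the type II partners of KRT16 and KRT17, had no boundary peak in any list. Around KRT6A, H1975 had 4 and 3 peaks in DMSO against 1 and 0 in ACBI1, and HCC44 had 5 and 6 in DMSO against 1 and 1 in ACBI1. Those peaks were largely shared with KRT6B and KRT6C, which lie within the same windows.

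Among keratins of suprabasal and other epithelial layers, 5 of 16 had a boundary peak in at least 1 list. KRT80, which is expressed across many epithelia, had the most surrounding peaks of any member by the mean over the 8 lists, though not in each list, with 16 and 14 in DMSO against 11 and 8 in ACBI1 in H1975, and 15 and 14 in DMSO against 10 and 9 in ACBI1 in HCC44. Its boundary peak, chr12:52191402-52192786, was listed in all 8 samples, at percentiles 72.1 to 93.3 of −log10 q. KRT10, a suprabasal keratin of the epidermis, had a peak at chr17:40818645-40819671 in all 8 samples, at the end of the gene away from its start. Its fold enrichment was 8.65 and 10.9 in the DMSO lists and 10.5 and 13.8 in the ACBI1 lists in H1975, and 7.03 and 7.06 in the DMSO lists and 8.5 and 7.94 in the ACBI1 lists in HCC44. KRT13, a keratin of mucosal epithelia, had a boundary peak at chr17:41500050-41500404 in all 4 DMSO samples and in no ACBI1 sample, at percentiles 13.4 and 9.55 in H1975 and 35.2 and 51.9 in HCC44. KRT78 had a pair of boundary peaks in both HCC44 DMSO samples, chr12:52836035-52837887 and chr12:52847420-52848301, and none in any other sample. KRT4 had one in HCC44 DMSO replicate 1 only.

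The follicle keratins had almost no boundary peaks. Of 9 inner root sheath and companion layer keratins only KRT75 had one, in both HCC44 DMSO samples at chr12:52434508-52435418. Of 17 hair keratins only KRT86 had one, at chr12:52307981-52309006, listed in all samples but H1975 ACBI1 replicate 2. KRT81, a hair keratin that overlaps the KRT86 record, had 6 and 6 surrounding peaks in DMSO against 4 and 4 in ACBI1 in each line. A region inside both genes, chr12:52287042-52288706, was listed in all 4 DMSO samples and in no ACBI1 sample, at percentiles 4.74 and 3.71 in H1975 and 74.8 and 56.8 in HCC44.

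Put together over the classes, 6 of the 10 H1975 members with a boundary peak in both DMSO lists had one in both ACBI1 lists, and 8 of 13 in HCC44. Over all protein-coding genes these shares were 95.2% and 91.9%. The boundary peak was in neither ACBI1 list for 3 of 10 members in H1975 (KRT5, KRT13 and KRT16) and for 5 of 13 in HCC44 (the same genes, KRT75 and KRT78), against 2.52% and 5.53% of all genes. The strength of the DMSO peak moved with this. Where the strongest boundary peak averaged under percentile 50 of −log10 q over the DMSO lists, 2 of 6 members in H1975 and 2 of 5 in HCC44 kept one, against 76.9% and 68.5% of all such genes. At or above percentile 50, 4 of 4 members in H1975 and 6 of 8 in HCC44 kept one, against 98.7% and 97.5%. In both lines KRT8 and KRT18 were among the members that kept one. They share the same peak, so they are not separate cases in these counts. These strata were chosen after the values were seen. With equal list lengths, at the 22133 strongest peaks each, 4 of 4 members in H1975 and 5 of 6 in HCC44 kept a boundary peak, against 98.7% and 97.8% of all genes, so the lower share in H1975 was not seen among the 4 members left when peaks were chosen by −log10 q. With a minimum fold enrichment of 5, one was kept by 2 of 6 members in H1975 and 1 of 3 in HCC44, against 91.5% and 64.9% of all genes.

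**Figure D3:**
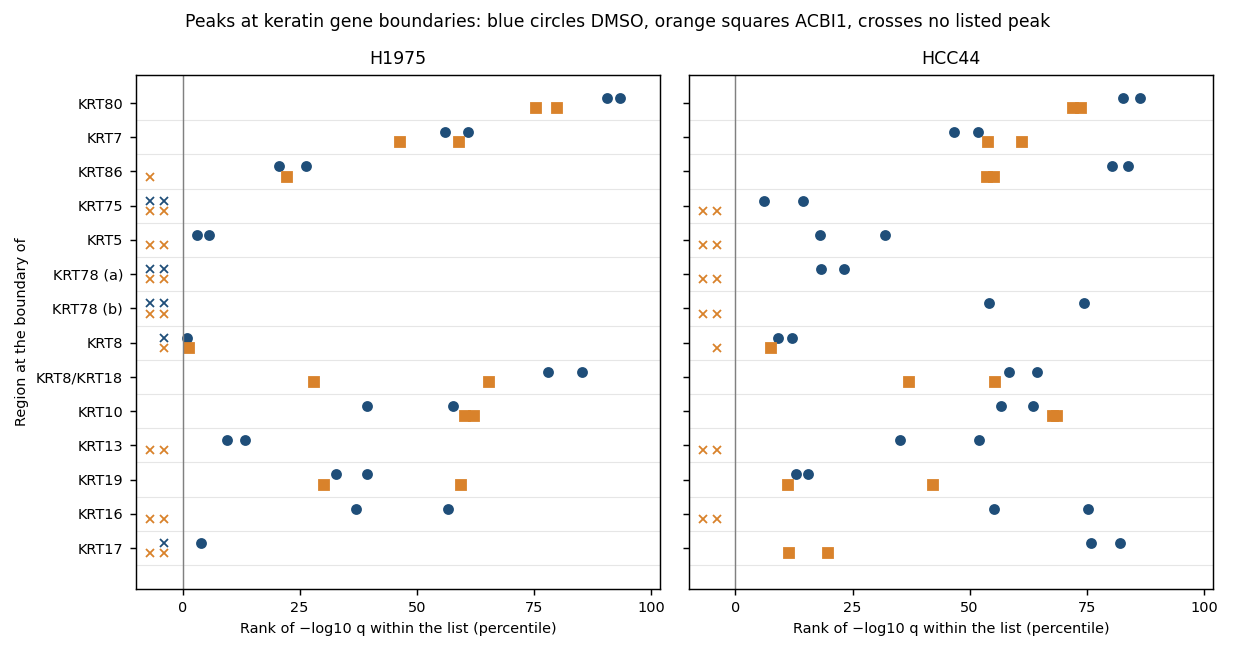
Rank of −log10 q within its own list (percentile, 100 the strongest; no measure of change between lists) for each region at a keratin boundary that was listed in at least 2 samples, for H1975 (left) and HCC44 (right); circles are DMSO samples, squares ACBI1 samples and crosses samples without a listed peak. KRT80, KRT7, KRT10, KRT19 and the peak shared by KRT8 and KRT18 are listed in all 8 samples, while KRT5, KRT13 and KRT16 have crosses for all ACBI1 samples of both lines.

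Promoters rich in CpG are often open across cell types. Whether promoter sequence has a part in these peaks was not tested. Of the 55 members, 34 matched an entry of the RefSeq promoter table (GRCh38.p14), which gives 250 bases before to 50 after a start, and all 34 lie on the minus strand. KRT80, KRT7, KRT86, KRT81, KRT83, KRT6B, KRT6C, KRT6A, KRT72, KRT1, KRT77, KRT78, KRT18, KRT222, KRT23, KRT13, KRT15, KRT19, KRT14, KRT16 and KRT17 had no entry used here. The ratio of observed to expected CpG had a median of 0.14 over these 34 promoters against 0.763 over 15812 protein-coding genes, and the median GC content was 45.7% against 62.7%. Over all genes that ratio was 0.832 where a gene had a boundary peak in any list and 0.343 where it had none, and over keratins 0.213 (5 members) and 0.138 (29 members). The 5 were KRT75, KRT5, KRT4, KRT8 and KRT10, and the other members with a boundary peak had no entry. A boundary peak can lie away from the promoter window, as for KRT8 and KRT10, so this does not compare promoters with and without a peak. A peak overlapped the promoter window of 2 of the 34 (KRT8 and KRT75) in both HCC44 DMSO lists and of 0 in the other 6 lists. For all genes with an entry, that share was between 55.6% and 58.6% in every list.

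The bases before the start are shown for 4 members, 5′ to 3′ on the minus strand. None of these windows lies at a boundary peak listed in all 8 samples. A peak overlapped those of KRT8 (chr12:52926470-52926719) and KRT75 (chr12:52434372-52434621) with DMSO in HCC44 only. For KRT75 it did so in the part farther than 137 and 159 bp from the start. The KRT8 start is that of its only entry and lies inside the KRT8 record, away from its boundary peaks. Other starts of KRT8 were not analysed here. KRT5 (chr12:52520395-52520644) had a DMSO peak 947 bp beyond its start, and KRT31 (chr17:41397609-41397858) lies in a stretch without any peak. Capitals mark matches, on either strand, to the TATA box TATAAA, the GC box GGGCGG, the AP-1 motif TGANTCA and the AP-2 motif GCCNNNGGC.
KRT8: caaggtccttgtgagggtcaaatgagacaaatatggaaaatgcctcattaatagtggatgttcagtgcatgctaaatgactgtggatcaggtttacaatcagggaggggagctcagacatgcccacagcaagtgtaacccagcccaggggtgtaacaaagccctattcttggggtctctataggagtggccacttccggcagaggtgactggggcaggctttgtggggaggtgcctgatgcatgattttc
KRT75: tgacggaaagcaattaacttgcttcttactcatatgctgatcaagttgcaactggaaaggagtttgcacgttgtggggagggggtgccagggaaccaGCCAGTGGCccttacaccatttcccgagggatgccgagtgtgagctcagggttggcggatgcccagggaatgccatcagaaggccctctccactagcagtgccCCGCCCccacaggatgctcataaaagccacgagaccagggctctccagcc
KRT5: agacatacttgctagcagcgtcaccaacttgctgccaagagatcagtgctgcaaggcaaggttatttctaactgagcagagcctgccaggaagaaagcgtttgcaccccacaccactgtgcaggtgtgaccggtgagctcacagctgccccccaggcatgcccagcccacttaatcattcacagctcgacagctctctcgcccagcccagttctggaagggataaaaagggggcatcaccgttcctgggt
KRT31: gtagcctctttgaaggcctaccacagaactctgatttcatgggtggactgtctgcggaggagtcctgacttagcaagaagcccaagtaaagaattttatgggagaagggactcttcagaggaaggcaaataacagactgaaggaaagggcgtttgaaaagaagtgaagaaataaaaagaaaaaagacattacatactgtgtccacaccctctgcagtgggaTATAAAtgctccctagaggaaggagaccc
KRT31 has the TATA box beginning 29 bases before its start, and KRT75 an AP-2 match 153 bases and a GC box 50 bases before its start. In the printed bases of KRT8 and KRT5 none of these motifs was matched. In the windows of 300 bases, 20 of 34 keratin promoters held TATAAA (58.8%) against 9.64% of all. A GC box was in 6 (17.6%) against 58.5%, an AP-2 match in 5 (14.7%) against 28.3%, and the AP-1 motif in 0 against 5.76%. Among the 29 members without a boundary peak in any list 19 held TATAAA, and among the 5 with one, KRT10 did. Matches are letters in these windows and not sites of binding. The counts of matching promoters describe the 34 entries only.

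The map of listed peaks along the clusters shows where the missing peaks lay. Merging all 8 lists gave 84 distinct regions in the members' windows, 63 on chromosome 12 and 21 on chromosome 17. Of these 16 lay at a keratin boundary, 1 at a boundary of another gene and 67 at none. The other gene was SMARCE1, which encodes a subunit of the SWI/SNF complexes and lies next to KRT222, and its boundary peak was listed in all 8 samples. In all, 21 regions had a peak in all 8 samples. A further 10 had one in all 4 DMSO samples and in no ACBI1 sample, 6 on chromosome 12 and 4 on chromosome 17. Of the 44 regions in all 4 DMSO lists, 1 was missing from both ACBI1 lists in H1975 only and 6 in HCC44 only. These counts over the 8 merged lists were not made for the whole genome, so they are no result about keratins. Line by line, 37.2% of all regions in both DMSO lists of H1975 were in neither ACBI1 list, and 49.2% in HCC44.

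**Figure D4:**
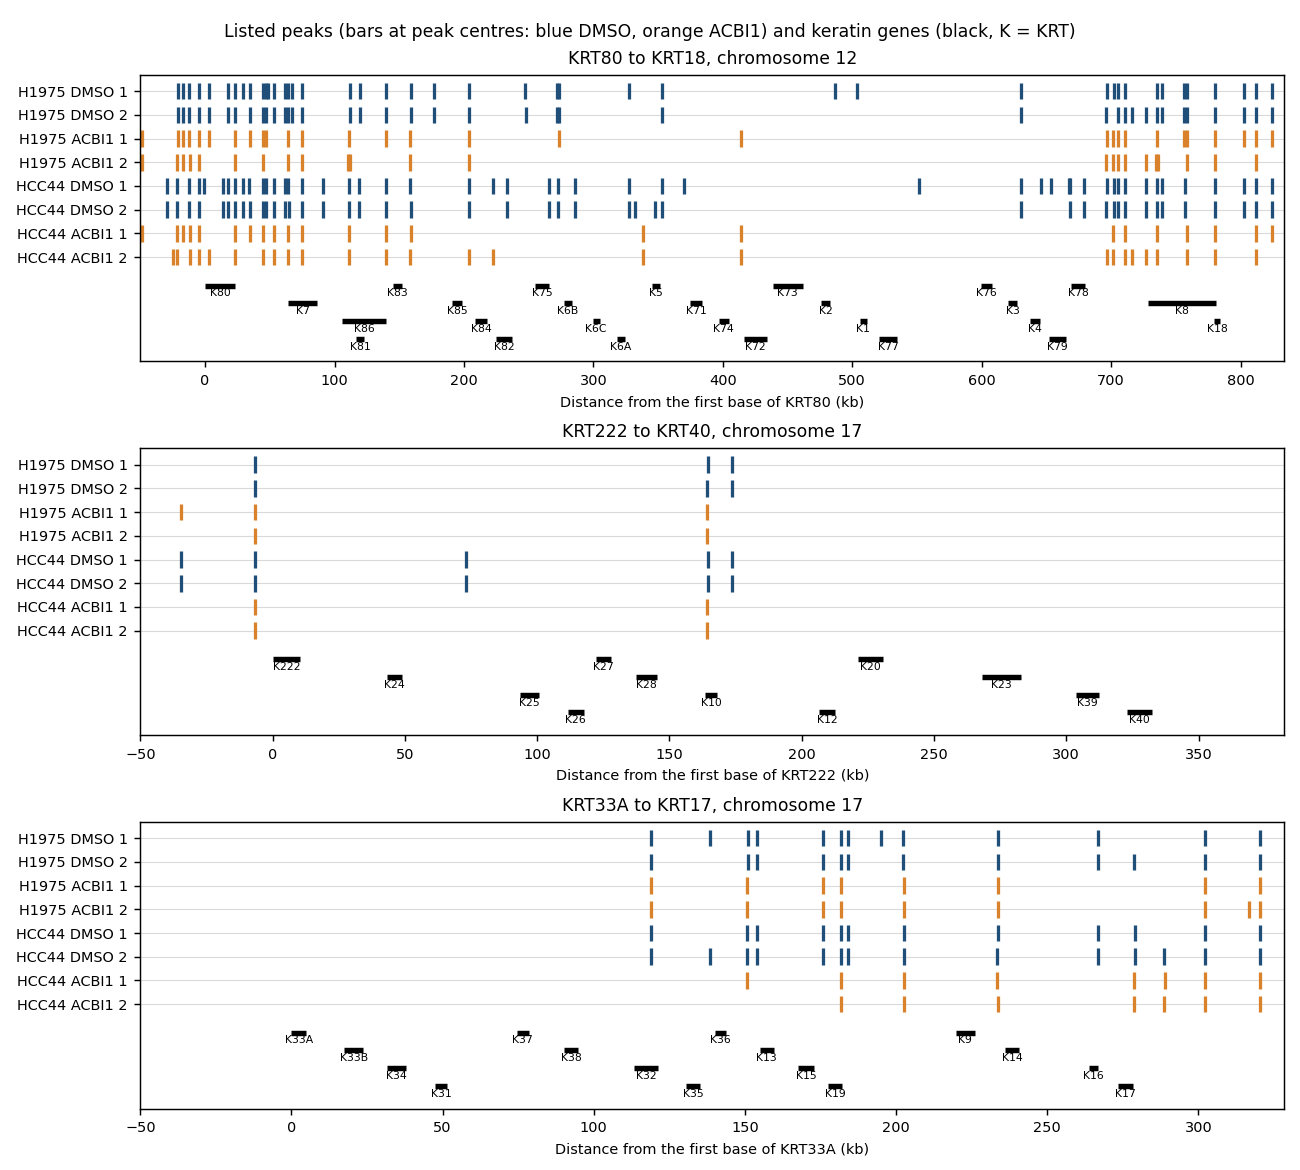
Listed peaks (bars at peak centres, blue with DMSO and orange with ACBI1) in the 8 samples along the 3 stretches of keratin genes (black, K for KRT), in kb from the first base of the first gene of each stretch. Peaks crowd around KRT80 and KRT7 and around KRT8 and KRT18 in every sample, while bars between KRT85 and KRT78 are mostly blue, and the windows of the genes from KRT23 to KRT31 are empty.

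Within each line the 4 lists were merged as well, and a region was called lost when it was in both DMSO lists and in neither ACBI1 list, retained when in all 4, and gained when in both ACBI1 lists and no DMSO list. In H1975, 15 of 51 regions with both DMSO peaks were lost (29.4%) and 28 retained (54.9%), against 37.2% and 52.0% over the genome. In HCC44, 28 of 59 were lost (47.5%) and 25 retained (42.4%), against 49.2% and 44.6%. Shares near the genome's are no result about keratins. Away from gene boundaries, however, 12 of 41 keratin regions were lost in H1975 (29.3%) and 22 of 44 in HCC44 (50%), against 50.2% and 63.0% of all such regions. At boundaries 3 of 10 were lost in H1975 and 6 of 15 in HCC44, against 4.23% and 8.73%. The keratin clusters thus had lower shares lost than the genome away from boundaries and higher shares at them, on small numbers that are not replicates. Without H1975 ACBI1 replicate 1 the lost regions of H1975 numbered 23, and the share lost over the genome was 47.4% rather than 37.2%. Gained regions were 1 of 66 in H1975 and 2 of 76 in HCC44, against 1.34% and 2.28%, and 0 were gained in both lines. The HCC44 ones lay 7039 bp from KRT5 at chr12:52507058-52507536 and 2259 bp from KRT72 at chr12:52582919-52583330, and that of H1975 at chr12:52119970-52120275, beyond KRT80. The region near KRT72 was also listed in H1975 ACBI1 replicate 1, and that beyond KRT80 in HCC44 ACBI1 replicate 1. Neither was in any DMSO list of either line, so each missed the rule in its other line by a single list.

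Ranked by the mean over the DMSO lists of its percentile of fold enrichment within each list, the strongest region lost in both lines was chr17:40828048-40828336, 5434 bp from KRT10, with 8.29 and 8.39 in the H1975 lists and 8.21 and 8.49 in those of HCC44. The KRT16 boundary came next, followed by chr12:52799111-52799653, 2994 bp from KRT3, with 6.03 and 5.67 in the H1975 lists and 5.11 and 4.88 in the HCC44 lists. The region inside KRT86 and KRT81 and that at KRT5 completed the first 5. The strongest retained region was the KRT10 peak, followed by chr17:41647671-41648915, 23096 bp from KRT17, with 9.56 and 7.85 in the DMSO lists and 8.55 and 7.6 in the ACBI1 lists in H1975. In HCC44 its fold enrichment was 7.23 and 7.84 in the DMSO lists and 6.16 and 5.9 in the ACBI1 lists. Then came chr12:52879315-52880214, 16977 bp from KRT8, which stood at percentiles 89.6 to 97.0 of −log10 q. The SMARCE1 boundary and chr12:52327247-52328237, 5849 bp from KRT83, completed the first 5. Exons and introns were not analysed here.

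Without ACBI1, differences between the lines in the number of surrounding peaks depended on which peaks were counted. Of 48 members with a peak, 16 had more surrounding peaks in both HCC44 DMSO lists than in both H1975 DMSO lists (33.3%), against 36.9% of all genes, and 3 had fewer (6.25%), against 17.1%. The 3 were KRT86, KRT83 and KRT18, each by 1 peak in every comparison. Those with more were KRT75, KRT6B, KRT6C, KRT6A, KRT5, KRT71, KRT74, KRT3, KRT4, KRT79 and KRT78 on chromosome 12 and KRT222, KRT24, KRT25, KRT26 and KRT27 on chromosome 17. KRT78, an epithelial keratin at the KRT8 side of the cluster, had 5 and 6 peaks in H1975 and 11 and 8 in HCC44. There were 9 regions in both HCC44 DMSO lists and no H1975 list, and all 9 were in no HCC44 ACBI1 list. In the reverse case there were 3 regions, and all 3 were in no H1975 ACBI1 list. The same counts over the whole genome were not made, so neither is a result about keratins. The share of members with more peaks in HCC44 was near the background and is no result about keratins. With a minimum fold enrichment of 5 the direction turned, with 4 members having more and 16 fewer in HCC44, against 13.9% and 38.4% of all genes. With 10 kb flanks 3 had more, against 26.6% of all genes. Without H1975 DMSO replicate 2, 12 members rather than 3 had fewer peaks in HCC44. The share of all genes was then 22.9% rather than 17.1%.

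Long stretches held no peak in any list. A stretch of 312 kb, chr17:40828337-41140711, contains KRT12, KRT20, KRT23, KRT39 and KRT40 and 18 keratin-associated protein genes. A second of 323 kb, chr17:41141156-41464565, contains KRT33A, KRT33B, KRT34, KRT31, KRT37 and KRT38 and 16 such genes. A single region at the keratin-associated protein gene KRTAP4-6 separates them, listed in both DMSO samples of each line and in 1 H1975 ACBI1 sample. Among 69055 gaps between neighbouring regions on chromosomes 1 to 22 and X, 1.69% and 1.61% were as long as these. Lying in them, KRT23, KRT39, KRT40, KRT33A, KRT33B, KRT34 and KRT31 had no peak within 50 kb in any list, 7 of 55 members (12.7%) against 9.13% of all protein-coding genes. Shorter stretches without a peak, of 72.1 to 90.5 kb, held KRT72, KRT73 and KRT2, KRT76 and KRT3, KRT222 and KRT24, and KRT25, KRT26, KRT27 and KRT28. HCC44 also had 8 and 10 peaks in DMSO against 5 and 4 in ACBI1 on alternate sequences of chromosome 17, and H1975 had 1 at most. Where those lie along the chromosome was not analysed here, and they were not counted. Whether the placement of reads had a part in the empty stretches was not tested.

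Partner genes of keratins with a boundary peak in both DMSO lists were followed to the ACBI1 lists. Both ACBI1 lists held one for 11 of 11 desmosome and plakin genes in H1975 and 8 of 10 in HCC44. They did so for 8 of 8 and 9 of 9 other intermediate filament genes, and for 8 of 10 regulators in each line. Over all protein-coding genes the shares were 95.2% in H1975 and 91.9% in HCC44, so each 8 of 10 lay below the share of its line. Of 17 desmosome and plakin genes, which anchor keratin filaments, 8 had a boundary peak in all 8 lists, not above the 52.8% of all genes. They were DSP, JUP, DSG2, DSC2, PKP4, DST, PLEC and EVPL. In H1975, 8 of the 16 with a surrounding peak were called fewer and in HCC44 13 of 17, with 0 more in either line, against 49.5% and 62.4% of all genes, so the H1975 count was at the background. PKP2, a desmosomal plakophilin, had a boundary peak in all 4 H1975 samples and no HCC44 sample, and PKP3 had one in all but the HCC44 ACBI1 samples. Of 12 other intermediate filament genes, 8 had a boundary peak in all 8 lists, against 52.8% of all genes, and 9 in H1975 and 11 in HCC44 were called fewer, against the same 49.5% and 62.4%. VIM, the mesenchymal filament gene, had 7 and 8 surrounding peaks in DMSO against 3 and 3 in ACBI1 in H1975. In HCC44 VIM had 8 and 5 in DMSO against 4 and 5 in ACBI1, where the groups overlap. Of 13 transcription factors and other regulators of epithelial keratin genes, 10 in H1975 and all 13 in HCC44 were called fewer, beside those shares of 49.5% and 62.4%. GRHL3, a factor of epidermal differentiation, had a boundary peak in all 4 DMSO samples and in no ACBI1 sample, as KRT5, KRT13 and KRT16 did. TP63, the basal cell factor, had no boundary peak in any list and had 14 and 10 surrounding peaks in DMSO against 5 and 2 in ACBI1 in H1975, and 8 and 7 in DMSO against 0 and 1 in ACBI1 in HCC44. Of 34 keratin-associated protein genes on chromosome 17, 22 had no peak within 50 kb in any list, against 9.13% of all genes. The 12 others were all called fewer in HCC44 and 0 in H1975, but their windows overlap and share peaks, so these are not separate calls, and the shares over all genes were 62.4% and 49.5%.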

How the data were processed

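Peak lists of 8 ATAC-seq samples were used as the authors deposited them, 1 list per sample with 9 columns and no header. Reads were aligned with BWA to hg38, per the submitters' processing notes. The peak caller and filters are not given in the sources used here. The fold enrichment (a ratio), the −log10 p-value and −log10 q-value and the score of each peak are the authors' deposited values, and the score was not used. The unit of counting here is a listed peak, on chromosomes 1 to 22 and X, and an overlap of 1 bp put a peak in a window. List length, smallest gap (657 to 1153 bp) and smallest width (163 to 286 bp) differ between lists and can move peak numbers.

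Members, gene lists and alternatives were chosen with earlier results of these data known, and the strata of peak strength after the values here were seen. The genes named were every member with a boundary peak, a set of simple, basal and stress keratins, the members with most and with no peaks, neighbours, and the 5 strongest lost and retained regions. Partner genes were named after their values were seen. Gene calls follow the order of the 2 ACBI1 and 2 DMSO lists. Alternatives were a minimum −log10 q of 20, a minimum fold enrichment of 5, equal list lengths, joined peaks, other windows, a replicate block and each list left out. Python 3.11.15, numpy 2.4.6, pandas 2.3.3 and matplotlib 3.10.9 were used, and the counting was tested on simulated data.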

Additional observations from a re-analysis of the deposited data

How the results depend on the processing

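Over 21 results, 64 of 109 values with all lists and 51 of 60 with 1 list left out stayed within 1.5 times the reported number. Shares over all genes or regions moved with the settings too, so a changed count alone is no result about keratins. Fewer surrounding peaks in H1975 (32 members) became 4 with equal list lengths and 13 with 10 kb flanks, and in HCC44 (39) 14 and 18. Of all genes with a peak, 13.4% and 33.1% were called fewer at these settings in H1975, and 15.1% and 42.9% in HCC44. More surrounding peaks in H1975 (0) became 7 with equal lengths, and in HCC44 (1) 2 with a minimum −log10 q of 20, 0 with a minimum fold of 5, 6 with equal lengths and 2 with 10 kb flanks. Boundary peaks in both DMSO lists of H1975 (10 members) became 6 with a minimum fold of 5, 4 with equal lengths, 17 with 5 kb windows and 2 with transcription starts only, and in HCC44 (13) 3, 6, 23 and 3. Of these, those kept in both ACBI1 lists of H1975 (6) became 2 with a minimum fold of 5, 13 with 5 kb windows and 1 with starts only, and in HCC44 (8) 1 with that fold, 5 with equal lengths and 1 with starts only. Starts were known for the 34 members in the promoter table.

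Lost regions in H1975 (15) became 4 with equal lengths, and in HCC44 (28) 7, and 10 with a minimum fold of 5. Over the genome the shares lost were 21.2% in H1975, and 35.9% and 64.3% in HCC44. Retained regions in H1975 (28) became 14 with that fold, 18 with equal lengths and 17 with 10 kb flanks, and in HCC44 (25) 5, 15 and 15. Gained regions in H1975 (1) became 7 with equal lengths and 0 with 10 kb flanks, and in HCC44 (2) 1 with a minimum −log10 q of 20, 1 with that fold and 7 with equal lengths. The genome's shares gained were 13.1% and 1.34% in H1975, and 1.34%, 1.58% and 18.7% in HCC44. Members with more DMSO peaks in HCC44 than in H1975 (16) became 4 with that fold, 7 with equal lengths and 3 with 10 kb flanks, and those with fewer (3) became 5 with a minimum −log10 q of 20, 16 with that fold, 1 with equal lengths and 1 with 10 kb flanks. Of all genes, 13.9%, 19.2% and 26.6% had more, and 23.6%, 38.4%, 26.5% and 13.7% fewer. Stretches without a peak (2 over 100 kb) numbered 7 over 50 kb. The causes were not tested, beyond the fewer peaks that each filter leaves.

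Leaving out 1 list gave 34 to 39 and 39 to 42 members with fewer surrounding peaks in H1975 and HCC44, 0 to 2 and 1 to 2 with more, 10 to 11 and 13 to 14 with DMSO boundary peaks, and 6 to 7 and 8 that kept them. Over all genes with a peak, 51.2% to 65.1% in H1975 and 65.9% to 69.4% in HCC44 were then called fewer. Leaving out 1 list also gave 15 to 23 and 31 to 34 lost, 28 to 36 and 25 to 28 retained and 1 to 3 and 2 to 5 gained regions. Over the genome 37.8% to 47.4% of regions in H1975 and 51.4% to 53.3% in HCC44 were then lost. Between the lines it gave 17 to 20 members with more and 3 to 12 with fewer peaks in HCC44. Of all genes, 40.5% to 44.3% had more and 20.4% to 22.9% fewer. The 23 lost regions came without H1975 ACBI1 replicate 1, the 12 members without H1975 DMSO replicate 2, the 2 members with more peaks in H1975 without ACBI1 replicate 2, and the 5 gained regions without HCC44 ACBI1 replicate 1. A requirement met with 1 list is weaker than with 2, so these counts mostly rise by construction. Replicate numbers are shared between groups without a stated pairing. The differences between replicates correlated at 0.113 (H1975) and 0.045 (HCC44) over 19974 genes between DMSO and ACBI1. With the replicate block, which compares lists of the same number, fewer surrounding peaks were counted for 35 members in H1975 and 39 in HCC44, and more for 0 and 1. Of all genes with a peak, 53.6% and 64.9% had fewer in the block, and 2.25% and 2.39% more.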
